A study of Mus musculus with 72 samples.

Results

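The Rab GTPases were followed across 72 mouse RNA-Seq libraries from a study of *Bmal1*-KO mice. Members were all protein-coding genes whose symbol is Rab, digits, and an optional letter, with a mean normalized count above 5 in at least 1 of 6 sets of libraries. The pattern matched 59 symbols, and 59 of the 55401 genes in the deposited tables were members. Within the family the members were chosen by name and mean normalized count, while the family itself was picked with earlier results of these data known. In gastrocnemius, *Rab42* (mean 5.10) and *Rab44* (6.15) lay just above the filter, and *Rab39* (4.95) and *Rab4b* (3.44) just below it. Of the 59 members, 40 passed it in all 6 sets, 47 in gastrocnemius, 41 in the GFP experiment, 58 in lung, 53 in heart, 51 in liver, and 59 in white fat. Read depth and scaling differ between the sets, so a mean of 5 is not the same cutoff in each. These numbers therefore do not compare tissues. In white fat fewer members passed without the libraries that carried epididymis markers, as given below.

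All mice were male. KO mice lacked *Bmal1* (gene symbol *Arntl*) in the whole body and WT mice were their littermates. KO+AAV mice were KO mice injected as pups with an AAV9 vector carrying HA-tagged *Bmal1* under CK6, a muscle-specific promoter. The promoter limits where the transgene is read and not where the vector goes, and the *Bmal1* gene itself stayed deleted in all cells. Gastrocnemius was sequenced at 10 weeks from 6 WT, 6 KO, and 7 KO+AAV mice and at 40 weeks from 5 of each, all taken at ZT1, 1 hour after lights on. A separate experiment at 10 weeks compared 3 KO mice given AAV9-CK6-GFP (KO+GFP) with 3 KO control mice, and lung, heart, liver, and white fat were sequenced at 40 weeks from 4 KO and 4 KO+AAV mice.

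Rab proteins are small GTPases that mark the membranes of the cell. With GTP bound, each recruits effectors (motors, tethers, coat proteins) that move, dock, or fuse a vesicle. Guanine nucleotide exchange factors (GEFs) switch Rabs on, GTPase-activating proteins (GAPs) switch them off, and GDP dissociation inhibitors and prenyltransferases carry them to and from membranes. In skeletal muscle the family is best known for GLUT4, the insulin- and contraction-responsive glucose transporter, whose storage vesicles carry RAB8A, RAB10, RAB13, and RAB14 and are held back by the GAPs TBC1D1 and TBC1D4. BMAL1 pairs with CLOCK and binds E-boxes, with CACGTG as the canonical motif.

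By role, 12 members belonged to ER and Golgi traffic, 10 to the early endosome, 6 to the recycling endosome, 11 to the late endosome, lysosome, and autophagy, 13 to secretory vesicles and exocytosis, and 7 to lysosome-related organelles, the cilium, and other sites. Promoters are shown because the KO lacks a factor that binds at E-boxes. RefSeq promoters on GRCm38.p6, from 250 bases before to 50 after the start, were found for 48 of the 59 members. These members had 60 promoters. CACGTG, a palindrome read the same on both strands, occurred in 6 of the 60 and in 7.15% of all 32851 promoters. The 6 belonged to *Rab5a*, *Rab20*, *Rab21*, *Rab23*, *Rab24*, and *Rab27a*. The noncanonical E-box CACGTT, searched on both strands as were the motifs that follow, was present in 3 of the 60 (4.68% of all promoters). The D-box TTANGTAA was in 1 of the 60 (2.32%) and the ROR element TAGGTCA in 1 (2.61%). Below are the upstream stretch of *Rab11b*, the member with the smallest *P* in WT versus KO, which held none of the 4 motifs, and the E-box windows of *Rab20*, *Rab21*, and *Rab5a*, the E-box members that passed the test in that comparison. Capitals mark CACGTG. The *Rab11b* stretch is chr17:33760588-33760736 on the minus strand and ends before the first annotated exon base. The *Rab20* window is chr8:11478669-11478698 on the minus strand, with the motif starting 46 bases before the RefSeq start. This window lies within *Rab20* as annotated in GENCODE (chr8:11453518-11478710), so it is upstream of the RefSeq start alone. The other windows are chr10:115315604-115315633 on the minus strand for *Rab21* (30 bases before) and chr17:53478987-53479016 on the plus strand for *Rab5a* (235 bases before). A match describes these letters and is no evidence of binding.
Rab11b: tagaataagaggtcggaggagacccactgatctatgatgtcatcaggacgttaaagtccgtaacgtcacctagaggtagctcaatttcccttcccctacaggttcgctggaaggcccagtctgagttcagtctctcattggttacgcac
Rab20: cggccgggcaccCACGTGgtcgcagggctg
Rab21: gcccaccgcggtCACGTGacgaggggtgtg
Rab5a: aattggagaagaCACGTGacgcaaccccac

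Reads counted on genes were 9325122 to 41733282 per gastrocnemius library, 6754312 to 8515400 in the GFP experiment, and 36903079 to 50755829 in the other tissues. *Arntl* read 402 to 634 normalized counts in the WT libraries at 10 weeks against 196 to 296 in KO and 169 to 281 in KO+AAV. At 40 weeks WT read 480 to 608, KO+AAV 268 to 359, and 4 KO libraries 308 to 395, while the library labelled KO replicate 2 read 1039. A count over the whole gene does not separate deleted from remaining exons, so it is a weak check of the label, and results that rest on this library are also given without it. Its ratio of *Rab11b* to *Rab11a* per kilobase of exon was 2.83. The other KO libraries at 40 weeks were at 2.19 to 2.86, KO+AAV at 1.98 to 2.58, and WT at 0.80 to 1.12. This ratio does not separate KO from KO+AAV. It rests on *Rab11b*, a result given below, so it is no independent check of the label. In *Tbc1d1*, given below, all KO libraries of that age, this one included, lay apart from WT. The 5 fast-fiber markers, which define gastrocnemius, summed to between 589818 and 1884410 normalized counts in the 34 libraries. The heart library KO replicate 2 carried 1211550 normalized counts of 4 hepatocyte markers against 222 to 299 in the other KO hearts, and the white fat library KO replicate 2 carried 1327220 of 4 epididymis markers.

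Values are counts divided by 1 size factor per library, fold changes are on the log2(normalized count + 1) scale, and a member was called where limma's adjusted *P* (Benjamini-Hochberg over all genes tested) was under 0.05. In bulk muscle, fewer cells of a type and less RNA per cell cannot be told apart. The comparisons at each age share their groups, so their results are not independent of each other.

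In WT versus KO at 10 weeks, 6 of 47 members were called, against 8% of all 16199 genes tested. *Rab6a*, *Rab10*, and *Rab35* were higher in WT (4.26% of all genes), and *Rab11b*, *Rab1a*, and *Rab15* were higher in KO (3.74%). At the study's threshold, an unadjusted *P* under 0.01, there were 9 (10.9% of all genes). The groups did not overlap for 6 members, against 6.06% of all genes. At 40 weeks 14 of 47 were called, against 23.5% of all genes. Of these, *Rab6b*, *Rab6a*, *Rab10*, and *Rab4a* were higher in WT, against 12% of all genes, and 10 were higher in KO, against 11.5% (*Rab11b*, *Rab15*, *Rab20*, *Rab1a*, *Rab1b*, *Rab21*, *Rab14*, *Rab31*, *Rab5a*, and *Rab27b*). The groups did not overlap for 8, against 13.6% of all genes, and at the study's threshold 14 members passed, against 22.5%. The median difference over the 47 members was 0.09 on the log2 scale at 10 weeks, with -0.01 over all genes, and -0.03 at 40 weeks, with 0.01 over all genes. At 40 weeks the early endosome had 6 of 9 tested members called (1 higher in WT and 5 in KO), ER and Golgi traffic 4 of 10 (2 and 2), the recycling endosome 2 of 4 (0 and 2), secretory vesicles 2 of 10 (1 and 1), the late endosome 0 of 8, and the remaining role 0 of 6. This tally turned on 1 library. Without the library labelled KO replicate 2 the early endosome had 2 of 9 called, ER and Golgi traffic 6 of 10, the recycling endosome 2 of 4, secretory vesicles 3 of 10, the late endosome 1 of 9, and the remaining role 0 of 6. The 23.5% of all genes belongs to the fit with all libraries.

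**Figure D1:**
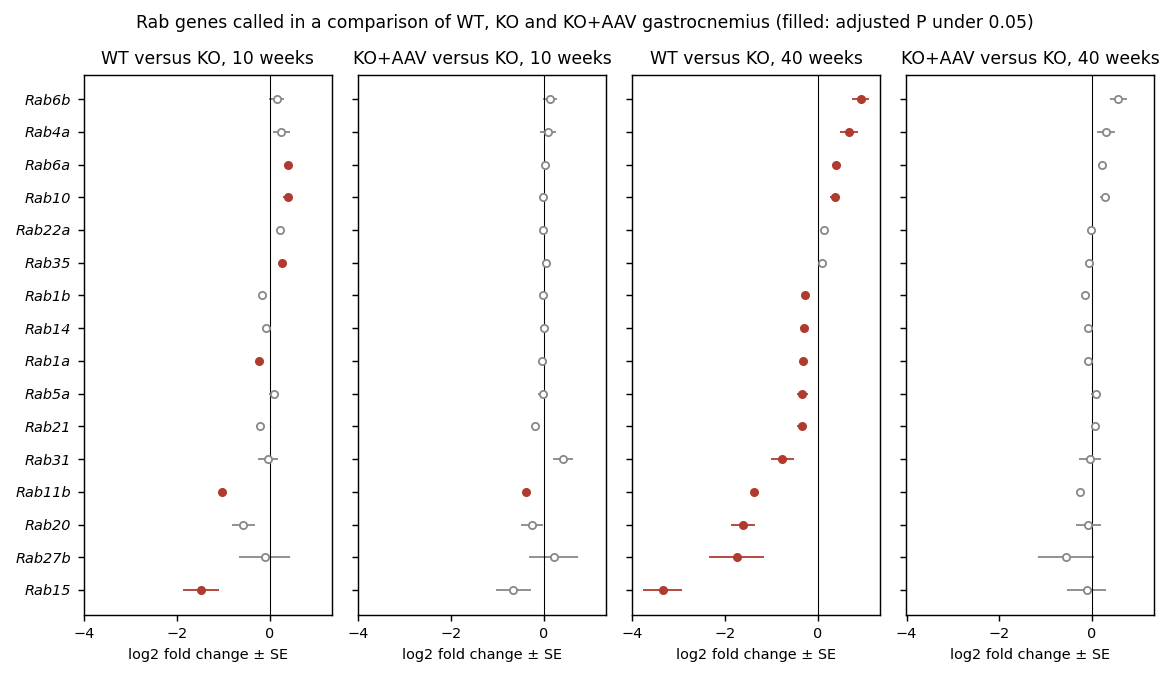
Log2 fold change with its standard error (x axis) for each member called in a comparison of WT, KO, or KO+AAV with each other, for 2 of these comparisons, KO+AAV versus KO and WT versus KO, at 10 and 40 weeks (limma, filled points called). Points left of 0 are lower in the first group, and *Rab15* (-3.34) and *Rab20* (-1.61) lie farther left in WT versus KO at 40 weeks than *Rab11b* (-1.37).

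The recycling endosome returns internalized receptors and transporters to the cell surface, and *Rab11b* (ENSMUSG00000077450, chr17:33742484-33760530, GRCm38) encodes one of its defining GTPases. At 10 weeks the lowest, median, and highest WT libraries read 903, 1045, and 1279 normalized counts, the KO libraries 1841, 2161, and 2367, and the KO+AAV libraries 1490, 1604, and 1800. Each group stood apart from the other 2, with KO+AAV in between. At 40 weeks the WT libraries read 1008, 1030, 1060, 1060, and 1071, the KO libraries 2357, 2729, 2748, 2834, and 2925, and the KO+AAV libraries 1965, 2187, 2265, 2306, and 2608. WT was again apart from both, and the KO+AAV range overlapped that of KO.

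For *Rab11b*, WT minus KO was -1.02 ± 0.07 at 10 weeks (SE, limma adjusted *P* = 1.73e-12) and -1.37 ± 0.07 at 40 weeks (adjusted *P* = 1.04e-14). By its *P* value it ranked 2 among all genes at 10 weeks and 1 at 40 weeks. WT minus KO+AAV was -0.65 (limma adjusted *P* = 3.63e-08) and -1.11 (adjusted *P* = 4.83e-12). KO+AAV minus KO was -0.37 ± 0.06 at 10 weeks (limma adjusted *P* = 0.00246), the 1 member called of 47 in that comparison, where 0.204% of all genes were called. It was also the 1 member without overlap there (0.574% of all genes), and 2 members had an unadjusted *P* under 0.01 (2.63%). At 40 weeks the same difference was -0.26 ± 0.07 and did not pass the test (limma adjusted *P* = 0.125). *Rab11b* also rose from 10 to 40 weeks in KO+AAV by 0.34 (limma adjusted *P* = 0.00323). In KO the rise was 0.23 (limma adjusted *P* = 0.0451), a call kept in 6 of 19 alternatives and lost without the library labelled KO replicate 2 (adjusted *P* = 0.132). It differed by -0.11 in WT (limma adjusted *P* = 0.785). The change of the WT-to-KO difference between ages, tested itself, was -0.35 ± 0.10 and did not pass it either (limma adjusted *P* = 0.104).

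The 10-week libraries came from 2 sequencing sites, and *Rab11b* was 1 of 4 members of 47 whose level differed between them, against 23.0% of all genes. Within the libraries of ICBR, WT minus KO was -1.05 (limma adjusted *P* = 0.000388), and within those of Novogene it was -1.0 (adjusted *P* = 0.000307). KO+AAV minus KO was -0.38 and -0.37 at these sites, with adjusted *P* = 0.278 and 0.598 by limma. The antisense gene *Gm17251* covers 5.37% of the exon bases of *Rab11b*, and 10.4% of its 100-base words also occur in *Gm17251* or the pseudogene *Rab11b-ps2*. WT minus KO was -1.07 and -1.39 for *Gm17251* at the 2 ages and -0.98 and -1.33 for *Rab11b-ps2*, so reads of the 3 genes cannot be fully told apart. At 10 weeks *Rab11b-ps2* read 77.2 to 96.5 normalized counts in WT and 148 to 201 in KO.

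*Rab11a*, the close paralog of *Rab11b*, was not called in any gastrocnemius comparison. Its libraries read 465 to 666 normalized counts in WT and 531 to 587 in KO at 10 weeks, and 451 to 612 and 480 to 524 at 40 weeks. WT minus KO was 0.02 ± 0.08 at 10 weeks and 0.02 ± 0.09 at 40 weeks (limma adjusted *P* = 0.924 and 0.906). The ratio of the 2 paralogs per kilobase of exon is free of the size factor. By this measure *Rab11b* stood at 0.66 to 1.25 times *Rab11a* in WT, 1.25 to 1.59 in KO+AAV, and 1.53 to 2.14 in KO at 10 weeks, and at 0.80 to 1.12, 1.98 to 2.58, and 2.19 to 2.86 in the same order at 40 weeks. In KO and KO+AAV libraries of lung, liver, and white fat the ratio was 0.66 to 0.79, 0.66 to 0.78, and 0.71 to 1.01, and in heart 0.98 to 1.68. The lowest heart value was that of KO replicate 2, with hepatocyte markers, and the next was 1.26. The highest white fat value was that of KO+AAV replicate 2, with epididymis markers, and the next was 0.86. *Rab25*, the epithelial member of the subfamily, read 0 to 3.72 normalized counts in gastrocnemius, and was under the filter there.

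**Figure D2:**
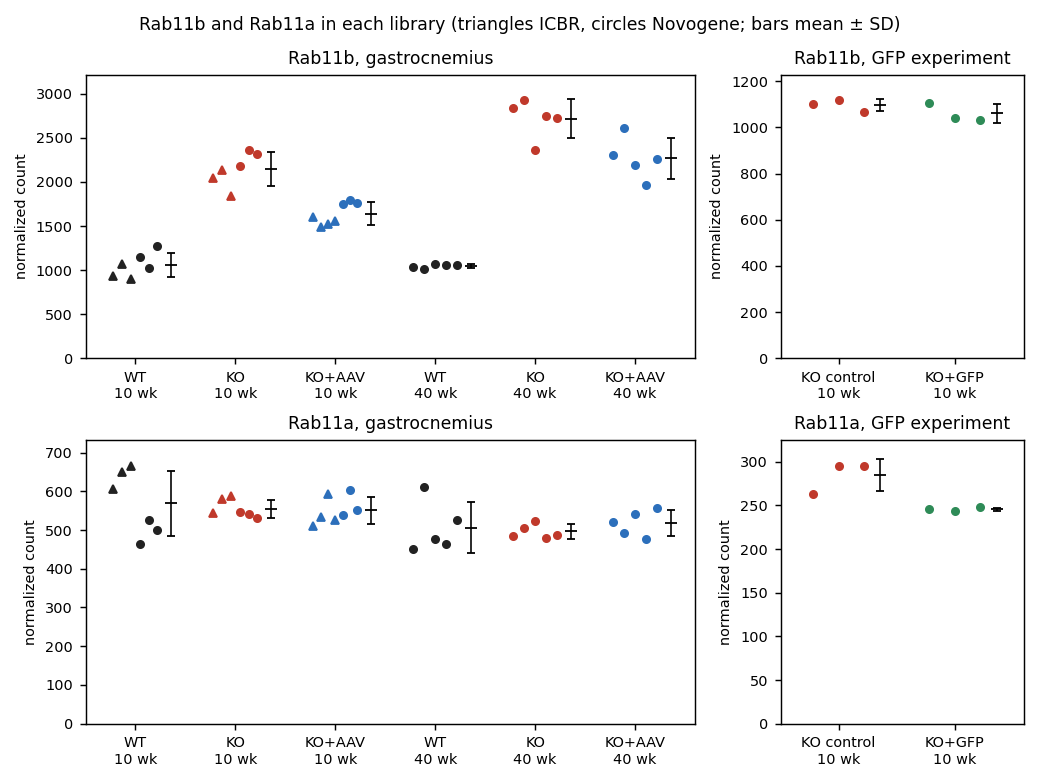
Normalized counts of *Rab11b* and *Rab11a* (y axis) in each library by group and age, in gastrocnemius and in the GFP experiment, with triangles for ICBR, circles for Novogene, and bars for mean ± SD. *Rab11b* was at 903 to 1279 in WT and 1841 to 2925 in KO gastrocnemius, while *Rab11a* overlapped between these groups.

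*Rab15* (ENSMUSG00000021062, chr12:76797960-76822908) acts in transport from the early to the recycling endosome. At 10 weeks its WT libraries read 28.5, 57.8, and 103.5 normalized counts (lowest, median, highest), KO 70.7, 153, and 337, and KO+AAV 47.9, 87.4, and 199, and the groups overlapped. At 40 weeks WT read 14.8, 36.0, 46.9, 58.4, and 106.5, KO 374, 407, 443, 513, and 553, and KO+AAV 250, 383, 410, 562, and 596. All 10 KO and KO+AAV libraries then lay above the 5 WT libraries. WT minus KO was -1.47 ± 0.38 at 10 weeks (limma adjusted *P* = 0.0124) and -3.34 ± 0.42 at 40 weeks (adjusted *P* = 5.69e-07), a fold of 10.2. WT minus KO+AAV was -3.24 at 40 weeks (limma adjusted *P* = 2.57e-06), and KO+AAV minus KO was -0.11 ± 0.42 (adjusted *P* = 0.966). With age *Rab15* rose in KO+AAV by 1.98 (limma adjusted *P* = 0.0035) and in KO by 1.44 (adjusted *P* = 0.0363, and 0.0753 without the library labelled KO replicate 2). Within ICBR and Novogene libraries at 10 weeks WT minus KO was -1.85 and -1.09, with limma adjusted *P* = 0.072 and 0.303.

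Slow-fiber markers also varied between libraries. The 6 markers summed to 1063 to 53155 normalized counts in KO and 1769 to 15535 in WT at 10 weeks, and the KO library with the highest sum also had the highest *Rab15* (337), the one with the lowest sum the lowest (70.7). At 40 weeks the sum ran from 5489 to 142443 in KO, from 2662 to 28002 in KO+AAV, and from 1328 to 21187 in WT, and 0 of the 6 markers was called in WT versus KO at either age. The KO library with the lowest sum at 40 weeks (5489) read 443 counts of *Rab15*. Of the 3 keratinized or basal epithelium markers, *Trp63* was the 1 that passed the filter, and it was called higher in KO at both ages. The sum of the 3 was 112 to 178 in WT and 220 to 354 in KO at 10 weeks, and 148 to 228 and 326 to 582 at 40 weeks. Other marker sums also lay apart at 40 weeks: the 4 fibroblast markers summed to 4940 to 7650 in WT and 1574 to 3946 in KO (2 of 4 called higher in WT), and the 5 T and NK cell markers to 29.7 to 34.1 and 3.58 to 7.14 (the 1 tested, *Cd3e*, called higher in WT). Of the other lists, 2 of 5 adipocyte markers and *Alb* were called higher in WT at 40 weeks, and *Pecam1*, 1 of 5 endothelial markers, higher in KO. Whether fiber type or marker differences have a part in the Rab results was not tested.

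**Figure D3:**
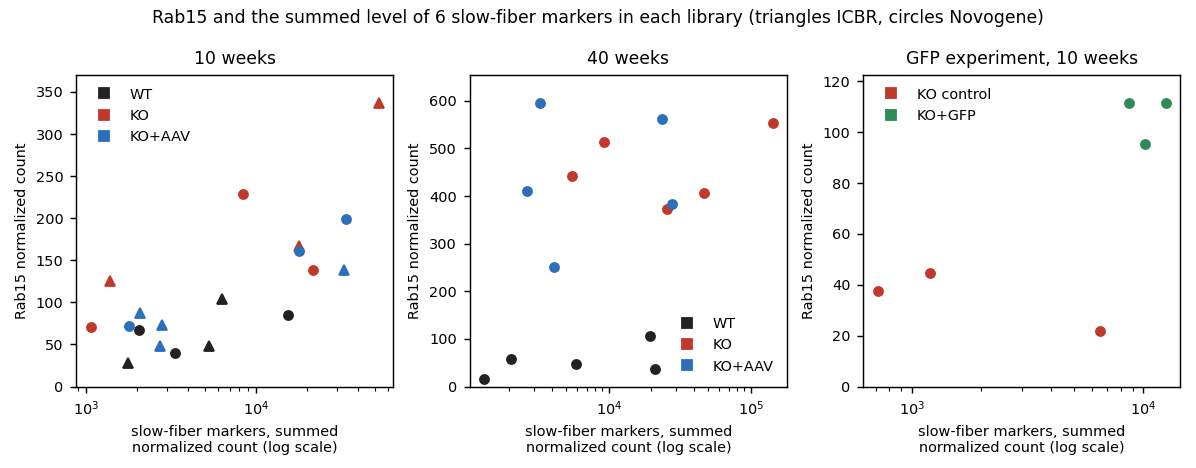
Normalized count of *Rab15* (y axis) against the sum of 6 slow-fiber markers (x axis, log scale) in each library at 10 weeks, 40 weeks, and in the GFP experiment, with triangles for ICBR and circles for Novogene. KO and KO+AAV libraries at 40 weeks lay between 250 and 596 counts of *Rab15*, and WT libraries at 14.8 to 106.5.

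*Rab35*, another GTPase of recycling, which acts near the plasma membrane, went the other way. At 10 weeks WT read 541, 612, and 641 normalized counts (lowest, median, highest) and KO 484, 491, and 540, without overlap. The difference was 0.28 ± 0.08 (limma adjusted *P* = 0.022), and 0.08 at 40 weeks.

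The early endosome receives cargo from the plasma membrane. *Rab20* (ENSMUSG00000031504, chr8:11453518-11478710), linked to endosomes and phagosomes, at 40 weeks read 26.7, 31.3, 43.8, 44.2, and 46.9 normalized counts in WT, 71.7, 75.7, 112, 130, and 279 in KO, and 79.7, 108, 115, 125, and 138 in KO+AAV. The WT libraries were below all others. The difference of WT from KO was -1.61 ± 0.27 (limma adjusted *P* = 3.43e-05) and WT minus KO+AAV -1.54 (adjusted *P* = 0.00013), and WT minus KO at 10 weeks was -0.57 (adjusted *P* = 0.17). Antisense gene *E230013L22Rik* covers 25.6% of its exon bases, and whether counting used the strand is not stated.

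*Rab21*, which carries integrins through endosomes, read 1282, 1325, 1441, 1472, and 1543 normalized counts in WT at 40 weeks. KO read 1605, 1773, 1774, 1831, and 2017, and KO+AAV 1707, 1712, 1796, 1996, and 2233, both wholly above WT. The difference of WT from KO was -0.35 ± 0.09 (limma adjusted *P* = 0.00475) and WT minus KO+AAV -0.41 (adjusted *P* = 0.00192). *Rab14*, which acts between the Golgi and endosomes and on GLUT4 vesicles, read 1267 to 1395 in WT and 1453 to 2070 in KO, with WT minus KO at -0.29 (limma adjusted *P* = 0.0136). Outside the naming rule, and named after their values were seen, *Rab5a*, the fusion GTPase of early endosomes, had WT minus KO at -0.33 (limma adjusted *P* = 0.0274), *Rab31* at -0.76 (adjusted *P* = 0.02), and *Rab4a*, of fast recycling, at 0.68 (adjusted *P* = 0.0113). Among gastrocnemius comparisons, *Rab22a* was called in 1, WT versus KO+AAV at 10 weeks (0.24, limma adjusted *P* = 0.0429), at 1054 to 1351 normalized counts in WT and 916 to 1167 in KO+AAV. That call was kept in 8 of 22 alternatives, with adjusted *P* up to 0.56 by limma.

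Without the library labelled KO replicate 2 at 40 weeks, 14 members were again called in WT versus KO. The share of all genes called in that fit is not given here, so this number does not set the family apart from other genes. *Rab14* (limma adjusted *P* = 0.065), *Rab5a* (0.132), *Rab31* (0.0635), and *Rab4a* (0.0525) were then no longer past the threshold. *Rab8a* (-0.41, limma adjusted *P* = 0.0249), *Rab2a*, *Rab30*, and *Rab39* passed it in their place. *Rab11b* was -1.35, *Rab15* -3.38, and *Rab20* -1.30 without it, each still called.

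RAB1A and RAB1B move cargo from the ER to the Golgi, and both genes were higher in KO at 40 weeks. *Rab1a* read 1527, 1587, and 1659 normalized counts in WT (lowest, median, highest) and 1737, 1866, and 1897 in KO at 10 weeks. At 40 weeks WT read 1388, 1391, 1442, 1492, and 1497 and KO 1700, 1752, 1816, 1847, and 1872. Neither age showed overlap, although the difference was small, at -0.22 ± 0.05 (limma adjusted *P* = 0.00417) and -0.32 ± 0.06 (adjusted *P* = 8.41e-05). *Rab1b*, named after its values were seen, read 1557 to 1848 in WT and 2033 to 2190 in KO at 40 weeks, at -0.27 (limma adjusted *P* = 0.0013).

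RAB6A and RAB6B serve retrograde traffic at the Golgi, and at 40 weeks both genes were higher in WT. *Rab6a* read 1521, 1733, and 2091 normalized counts in WT and 1219, 1339, and 1536 in KO at 10 weeks (lowest, median, highest), a difference of 0.40 ± 0.09 (limma adjusted *P* = 0.00345), and 0.40 ± 0.10 at 40 weeks (adjusted *P* = 0.00327). *Mrpl48* on the other strand covers 19% of its exon bases. *Rab6b*, the isoform best known from neurons, read 193, 217, 276, 292, and 310 in WT at 40 weeks, 93.1, 107, 150, 161, and 173 in KO, and 187, 193, 194, 203, and 216 in KO+AAV. KO lay below both other groups. The difference of WT from KO was 0.92 ± 0.18 (limma adjusted *P* = 0.000319), and 0.15 at 10 weeks (adjusted *P* = 0.708). KO+AAV minus KO at 40 weeks was 0.57 ± 0.18 and did not pass the test (limma adjusted *P* = 0.222).

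**Figure D4:**
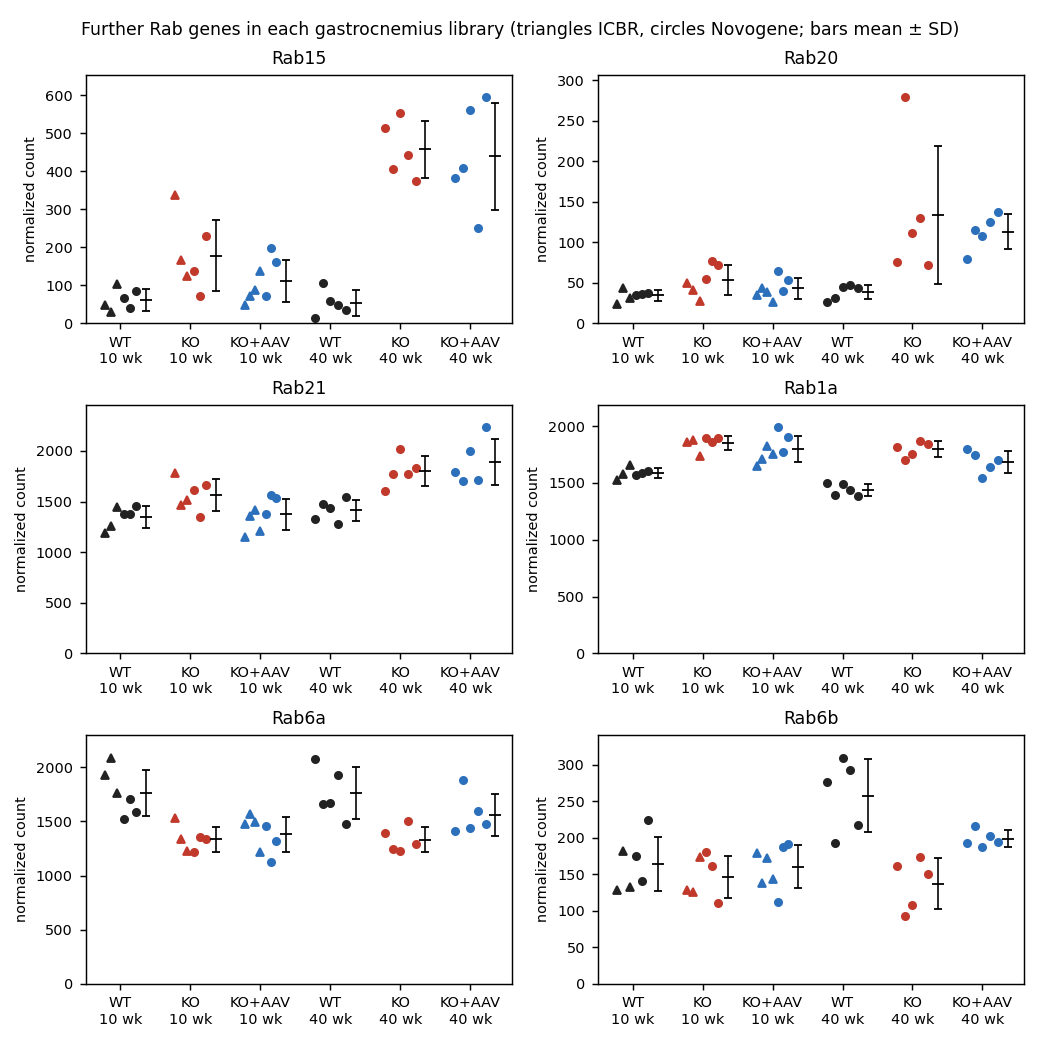
Normalized counts (y axis) of *Rab15*, *Rab20*, *Rab21*, *Rab1a*, *Rab6a*, and *Rab6b* in each gastrocnemius library by group and age, with triangles for ICBR, circles for Novogene, and bars for mean ± SD. At 40 weeks WT lay below KO for *Rab15*, *Rab20*, *Rab21*, and *Rab1a* and above KO for *Rab6b*, and for *Rab6a* 1479 to 2082 in WT met 1225 to 1504 in KO.

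Among secretory members, *Rab10*, which encodes a GTPase of GLUT4 vesicles, was higher in WT at both ages. At 10 weeks WT read 6509, 7432, and 10117 normalized counts (lowest, median, highest), KO 5336, 5838, and 6308, and KO+AAV 4525, 5898, and 7102. WT stood wholly above KO at this age. At 40 weeks WT read 5611, 6409, 6706, 7160, and 8040, KO 4503, 5127, 5237, 5577, and 5714, and KO+AAV 5759, 5860, 6342, 6732, and 7106. WT and KO overlapped in 1 library each. For the 2 ages, WT minus KO was 0.39 ± 0.10 (limma adjusted *P* = 0.00793) and 0.37 ± 0.11 (adjusted *P* = 0.0102). KO+AAV did not overlap KO at 40 weeks, at a difference of 0.28 that did not pass the test (limma adjusted *P* = 0.332), and at 10 weeks KO+AAV minus KO was -0.01.

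Of the other GLUT4 members, *Rab14* was called at 40 weeks, as given above, and *Rab8a* and *Rab13* in no gastrocnemius comparison. Without the library labelled KO replicate 2 the calls of *Rab14* and *Rab8a* at 40 weeks changed places (limma adjusted *P* = 0.065 and 0.0249). *Rab8a* read 132 to 190 normalized counts in WT, 113 to 157 in KO, and 153 to 230 in KO+AAV at 10 weeks. KO+AAV minus KO was 0.41 ± 0.13 (limma adjusted *P* = 0.274). At 40 weeks *Rab8a* read 98.5 to 135 in WT, 87.8 to 186 in KO, and 114 to 150 in KO+AAV, with WT minus KO at -0.24 (limma adjusted *P* = 0.247). *Rab13* read 71.1 to 113 in WT and 44.5 to 130 in KO at 10 weeks, and 70.3 to 111 and 82.4 to 118 at 40 weeks, with differences of 0.03 and 0.00. *Rab27b*, which docks secretory granules, was called at 40 weeks (-1.75, limma adjusted *P* = 0.0315) on counts of 0 to 7.82 in WT and 6.90 to 33.9 in KO, so few reads lie behind it, and it was named after its values were seen. That call was kept in 11 of 17 alternatives.

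In KO+AAV versus KO at 40 weeks, 0 of 47 members were called by limma, where 0.259% of all genes were. At an unadjusted *P* under 0.05 there were 8, against 10.1% of all genes, and at 0.01 there were 2 (*Rab11b* and *Rab6b*), against 3.25% of all genes. edgeR called 0 and DESeq2 called 1 (*Rab11b*), against 0.488% of all genes. Groups did not overlap for 3 members (*Rab6b*, *Rab10*, and *Rab1b*), against 1.08% of all genes. In WT versus KO+AAV, 5 members were called at 10 weeks, against 5.15% of all genes, with *Rab10*, *Rab6a*, and *Rab22a* higher in WT (2.94%) and *Rab11b* and *Rab1a* lower (2.21%). At 40 weeks 7 were called, against 12.5%, none of them higher in WT (6.05% of all genes), and *Rab11b*, *Rab15*, *Rab20*, *Rab21*, *Rab1a*, *Rab5a*, and *Rab31* were all lower in WT (6.41%). The call of *Rab31* was kept in 8 of 17 alternatives.

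From 10 to 40 weeks, 0 of 47 members were called in WT muscle by limma, where 0.148% of all genes were, with 4 at an unadjusted *P* under 0.05 (7.46% of all genes) and 0 by edgeR or DESeq2. In KO muscle 4 were called, all higher at 40 weeks (*Rab40c*, *Rab20*, *Rab15*, and *Rab11b*), against 8.31% of all genes in either direction, 4.05% higher and 4.26% lower. Without the library labelled KO replicate 2 at 40 weeks the number was 0, and the share of all genes called in that fit is not given here. *Rab40c*, whose protein is part of a ubiquitin ligase, differed by 0.58 (limma adjusted *P* = 0.0155), at 106 to 140 normalized counts in KO at 10 weeks and 105, 154, 175, 187, and 240 at 40 weeks. In KO+AAV muscle 6 were called, against 8.53%, with *Rab11b*, *Rab15*, *Rab21*, *Rab20*, and *Rab5a* higher at 40 weeks (4.67%) and *Rab7b* lower (3.86%). *Rab7b*, of late endosomes, fell by 1.48 on the log2 scale (limma adjusted *P* = 0.0254). Its highest KO+AAV library at 10 weeks (135 counts, the others 29.3 to 73.1) also carried the highest sum of the 8 macrophage markers in that group (7166, the others 740 to 2108), and the part of macrophages in this value was not tested. All 10-week against 40-week comparisons use 10-week libraries of both sites and 40-week libraries of 1.

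The WT-versus-KO difference changed between ages for 0 of 47 members by limma, where 0.37% of all genes were called. At an unadjusted *P* under 0.05 there were 8 members, against 13% of all genes, edgeR called 0, and DESeq2 called 1 (*Rab11b*), against 1.27%. For *Rab15* the change was -1.87 ± 0.57 (limma adjusted *P* = 0.135) and for *Rab20* it was -1.05 ± 0.36 (adjusted *P* = 0.187). For KO+AAV versus KO the same test called 0 members by limma, edgeR, and DESeq2, against 0.00617% of all genes, with 5 at an unadjusted *P* under 0.05 (5.15%).

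In the GFP experiment, 1 of 41 members was called, against 3.09% of all genes tested there. *Rab15* read 95.2, 111.4, and 111.5 normalized counts in KO+GFP and 21.8, 37.5, and 44.6 in KO control muscle. The difference was 1.64 ± 0.24 (limma adjusted *P* = 0.00371), a fold of 3.12. Of the slow-fiber markers, 4 of 6 were called higher in KO+GFP, with sums of 8648 to 12536 against 713 to 6480. The 6 Schwann cell markers summed to 430 to 540 in KO+GFP and 1074 to 1280 in controls (3 called lower), and 4 of 7 macrophage and 3 of 4 fibroblast markers tested were called higher. Their part in the *Rab15* value was not tested. *Rab11b*, for comparison, read 1031, 1043, and 1108 in KO+GFP and 1067, 1102, and 1117 in controls, a difference of -0.05 (limma adjusted *P* = 0.803). Groups of 3 did not overlap for 7 members (*Rab15*, *Rab40b*, *Rab6a*, *Rab20*, *Rab11a*, *Rab23*, and *Rab9*), against 23.5% of all genes. Among them *Rab40b*, named after its values were seen, read 107, 115, and 124 in KO+GFP and 156, 158, and 191 in controls (-0.54, limma adjusted *P* = 0.0518), and *Rab11a* 244, 245, and 248 against 263, 295, and 296 (-0.21, adjusted *P* = 0.289). This table was normalized separately, so its levels cannot be set beside those of the other gastrocnemius libraries.

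In the other tissues of KO+AAV versus KO mice, limma and edgeR called 0 members, with 0.0237% of all genes called in lung and 0 genes in heart, liver, and white fat. At an unadjusted *P* under 0.05 there were 8 members of 58 in lung, 0 of 53 in heart, 1 of 51 in liver, and 0 of 59 in white fat, against 11.9%, 1.28%, 3.32%, and 1.04% of all genes. DESeq2 called 2 members in lung, against 2.98% of all genes, and 0 in heart, liver, and white fat. The lung members were *Rab33a*, a Golgi GTPase, and *Rab3b*, of regulated exocytosis, both named after their values were seen. *Rab33a* read 10.5, 23.7, 24.9, and 36.4 normalized counts in KO and 56.8, 58.8, 60.2, and 78.6 in KO+AAV lung, a difference of 1.48 ± 0.35 (limma adjusted *P* = 0.147). *Rab3b* read 94.8, 121, 138, and 140 in KO and 167, 181, 190, and 230 in KO+AAV lung (0.64, limma adjusted *P* = 0.194). Neither overlapped between groups, which held for 6 members in lung and for 6.77% of all genes. Cardiomyocyte markers were also higher in KO+AAV lung, with all 5 at an unadjusted *P* under 0.01 and sums of 3366 to 35374 against 61032 to 198260. In the heart library KO replicate 4, which read 309047 counts of the atrial gene *Nppa*, *Rab33a* and *Rab3b* read 171 and 285, against 0.961 to 7.37 and 5.18 to 8.60 in the other KO hearts. The part of heart tissue in the lung values was not tested.

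Outside muscle, *Rab11b* in KO and KO+AAV overlapped in each tissue. KO lungs read 6163, 6331, 6353, and 6915 normalized counts and KO+AAV lungs 5954, 6053, 6333, and 6371 (log2 difference -0.06, limma adjusted *P* = 0.719). The difference was 0.23 in heart, -0.07 in liver, and 0.19 in white fat. *Rab8a* and *Rab14* were high in the heart library KO replicate 2, the one with hepatocyte markers (2551 and 7381 counts, the other KO hearts 954 to 965 and 5106 to 5362). For the GLUT4 members, KO+AAV minus KO ran from -0.06 to 0.16 for *Rab10* over the 4 tissues, from -0.49 to -0.01 for *Rab8a*, from -0.25 to 0.20 for *Rab13*, and from -0.11 to 0.02 for *Rab14*, all with overlap. *Rab25* read 950 to 1307 normalized counts in lung, where epithelium is abundant, 0 to 5.18 in heart, and 1.12 to 9.2 in liver. It read 2603 in the white fat library KO replicate 2, with epididymis markers, and 8.68 to 341 in the other KO fat libraries. Without the 3 heart libraries with the highest liver or atrial markers, 0 of 52 members tested were called, and without the 3 white fat libraries with epididymis markers 0 of 55 were, a choice made after the data were seen. These white fat libraries did not carry the markers alike. The 4 markers summed to 1327220 in KO replicate 2 and to at most 774 in KO+AAV fat.

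Levels were compared between members as shares of the summed family count per kilobase of exon within each library. In gastrocnemius *Rab10* took 15.2% (mean of 34 libraries, 11.4% in the lowest), *Rab2a*, of ER-to-Golgi traffic, 14.5%, *Rab7*, of late endosomes, 12.2%, *Rab12*, of lysosomal traffic, 10.8%, and *Rab1b* 6.90%. These 5 made up 59.6% of the family, and 4 members reached 50%. *Rab10* took 3.8% to 5.3% in lung, heart, liver, and white fat, and 16.3% in the gastrocnemius libraries sequenced at ICBR, where those tissues were also sequenced. *Rab7* led in each of the other tissues, at 12% in lung, 12.6% in heart, 12.8% in liver, and 12.3% in white fat, and the 5 highest members made up 41.0% to 50.2%. *Rab11b* took 2.5% in gastrocnemius and ranked 10 in the family. These shares were given as a description and not tested.

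**Figure D5:**
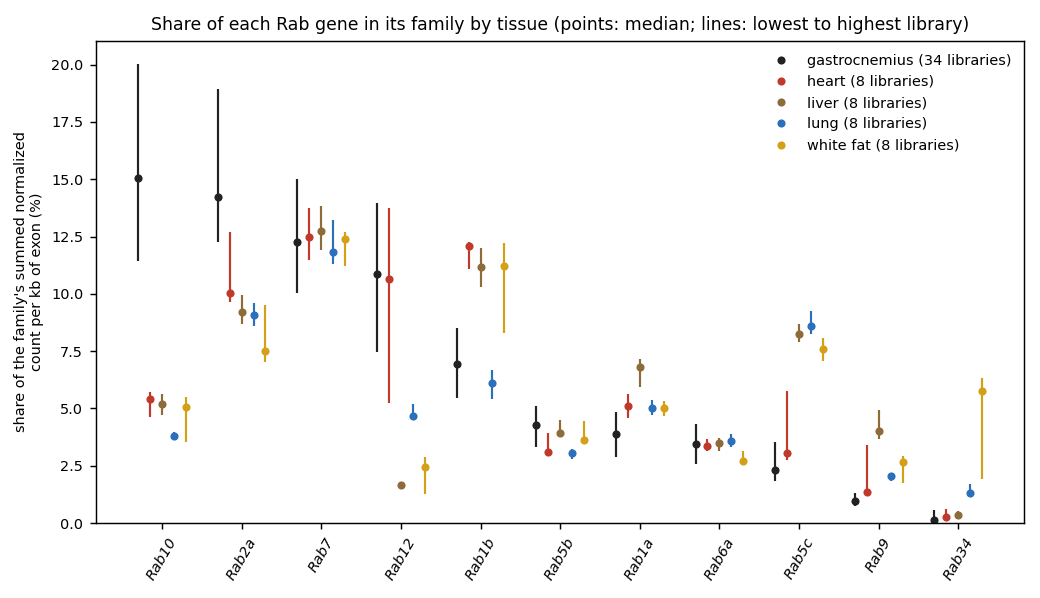
Share of the summed Rab family count per kilobase of exon (y axis, percent) taken by members that are among the highest in a tissue, with points for the median library and lines from the lowest to the highest library. *Rab10* stood at a median of 15.1% in gastrocnemius and 3.8% in lung.

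The regulators of the Rabs were read from lists of 49 GEFs, 41 GAPs, 49 effectors, 8 chaperones and prenylation genes, and 3 genes of the LRRK kinases and their opposing phosphatase that passed the filter in gastrocnemius. In WT versus KO at 10 weeks 3 GEFs, 4 GAPs, 6 effectors, and 0 of the other 2 lists were called, and at 40 weeks 15, 11, 16, 3, and 1, against the 8% and 23.5% of all genes. The GAP gene *Tbc1d1*, which restrains GLUT4 vesicles, ranked 8 by *P* among all genes at 10 weeks. Its libraries read 940 to 1515 normalized counts in WT, 89.8 to 353 in KO, and 264 to 905 in KO+AAV at 10 weeks. At 40 weeks WT read 1581, 1632, 1942, 1956, and 1973, KO 118, 125, 135, 150, and 182, and KO+AAV 287, 480, 529, 538, and 1098. The 3 groups did not overlap at 40 weeks. WT minus KO was 3.14 and 3.68 (limma adjusted *P* = 6.13e-10 and 6.37e-11), and KO+AAV minus KO 1.62 and 1.92 (adjusted *P* = 0.000654 and 0.000316). In the GFP experiment *Tbc1d1* also differed, at 68.7 to 211 normalized counts in KO+GFP and 46.6 to 60.6 in controls (1.27, limma adjusted *P* = 0.0495). *Tbc1d4*, the related GAP, differed by -0.61 at 10 weeks (limma adjusted *P* = 0.0274) and -0.30 at 40 weeks (adjusted *P* = 0.278).

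Other regulators named by the same rule moved less. At 10 weeks *Rabgef1*, a GEF of RAB5, was 0.52 higher in WT and the TRAPP subunit *Trappc10* 0.24 lower (limma adjusted *P* = 0.00176 and 0.00903). *Dennd2c*, which encodes a DENN domain GEF, was 0.85 higher in WT at 10 weeks and 1.71 at 40 weeks (limma adjusted *P* = 0.0293 and 2.48e-05). At 40 weeks *Trappc10* was -0.41 and the TRAPP subunit *Trappc11* -0.60 (limma adjusted *P* = 3.06e-05 and 0.000501). Among GAPs, *Tbc1d20* was 0.31 at 10 weeks, and *Tbc1d8b* 1.31 and *Sgsm3* 0.50 at 40 weeks (limma adjusted *P* = 0.0313, 0.000179, and 0.00146). *Trappc10* was the 1 GEF called in KO+AAV versus KO at 10 weeks, at -0.31 (limma adjusted *P* = 0.00913), where 0.204% of all genes were called. Of these lists, *Tbc1d1* was the other gene called there and the only one called at 40 weeks (0.259% of all genes). Among effectors, *Osbpl1a*, a RAB7 effector on late endosomes, was -1.07 and -1.32 in WT minus KO at the 2 ages (limma adjusted *P* = 5.44e-05 and 4.23e-06), *Sytl2*, a RAB27 effector, -1.75 at 10 weeks (adjusted *P* = 0.000311), and the motor gene *Myo5a* 1.15 (adjusted *P* = 0.00605). At 40 weeks *Appl1*, a RAB5 effector, was 0.55 higher in WT and *Micall1*, of recycling tubules, -1.23 (limma adjusted *P* = 4.83e-05 and 3.03e-05). *Gdi2*, which extracts Rabs from membranes, and *Rabggtb*, the catalytic subunit of Rab prenylation, were -0.51 and -0.52 (limma adjusted *P* = 0.00119 and 0.00989), *Rabac1*, a prenylated Rab acceptor, was 0.32 (adjusted *P* = 0.0288), and the kinase gene *Lrrk2*, whose protein phosphorylates several Rabs, was 0.67 (adjusted *P* = 0.022).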

How the data were processed

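Poly(A)-selected libraries from total RNA of male mouse tissues were sequenced at 2 sites. Per the labels and the study's methods, the authors aligned reads with HISAT2 to GRCm38, counted them per gene with HTSeq, and divided them by DESeq2 size factors; the deposited values are this signal (normalized counts). The annotation release and strand setting are not given in the sources used here. Symbols came from GENCODE vM21 (99.5% of 55401 genes), promoters from RefSeq GRCm38.p6. Each value was within 0.05 of a whole read, and count tests on the recovered reads served as alternatives. Genes with a mean above 5 were tested on log2(value + 1) with limma 3.58.1 (R 4.3.3): 34 gastrocnemius libraries in one model of 6 groups with sequencing site as a covariate, and the GFP experiment and each other tissue alone. Alternatives used edgeR 4.0.16, DESeq2 1.42.0, other filters and pseudocounts, single sites, and left-out libraries. Levels cannot be compared across tables normalized separately. Methods were tested on simulated data. Counts are bulk, and *P* values cover the spread between mice. Members named with values for each library were the *Rab11* subfamily, the GLUT4 Rabs, and the 3 members with the smallest *P* in each direction of each comparison; regulators named were those called among the 3 with the smallest *P* in each list when KO was set against WT or KO+AAV at each age. The members and gene lists were chosen with earlier results of these data known.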

Additional observations from a re-analysis of the deposited data

Results flagged for a closer look

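Of 150 groups of 4 to 10 libraries of the named members, 9 held a library whose gap to the nearest other, divided by the range of the group, passed Dixon's 95% critical value, and chance gives about 1 in 20. In gastrocnemius, *Rab20* in the library labelled KO replicate 2 at 40 weeks read 279 normalized counts against 71.7 to 130 in the others (ratio 0.718), *Rab1a* in KO replicate 3 at 10 weeks read 1737 against 1856 to 1897 (0.745), and *Rab35* in KO replicate 1 at 10 weeks read 540 against 484 to 493 (0.840). *Rab7b* in KO+AAV replicate 5 at 10 weeks read 135 against 29.3 to 73.1 (0.587). In heart KO replicate 2, *Rab8a* read 2551 against 954 to 965 (0.993) and *Rab14* 7381 against 5106 to 5362 (0.887). In white fat, *Rab25* read 2603 in KO replicate 2 against 8.68 to 341 (0.872) and 189 in KO+AAV replicate 2 against 1.02 to 3.44 (0.987). *Rab14* in KO+AAV lung replicate 4 read 8285 against 7974 to 8026 (0.832).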

How the results depend on the processing

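Across 44 called results of members and 823 settings, 703 kept the call, 120 lost it, and 0 reversed, with 28 results losing it under at least 1 setting. The counts called in WT versus KO were 6 at 10 weeks (1 within ICBR and 1 within Novogene, with 3 mice a group; 5 to 8 with 1 library left out) and 14 at 40 weeks (9 with the 2 groups fitted alone; 11 to 16 with 1 left out). KO+AAV versus KO gave 1 at 10 weeks (0 within either site) and 0 at 40 weeks (1 by DESeq2; 0 to 1 with 1 left out, 1 without KO+AAV replicate 2 or KO replicate 3). WT versus KO+AAV at 10 weeks gave 5 (1 within each site, 3 with the groups alone, 3 to 5 with 1 left out, 3 without KO+AAV replicate 5 or WT replicate 2 or 6). The age comparison gave 4 in KO (1 in Novogene libraries alone, 2 by edgeR, 1 with no filter, 0 with the groups alone, and 0 to 4 with 1 left out: 0 without the library labelled KO replicate 2 at 40 weeks, 1 without KO replicate 3 or 5 at 10 weeks, and 2 without KO replicate 6 at 10 weeks or KO replicate 1 at 40 weeks) and 6 in KO+AAV (1 in Novogene libraries alone, 2 with the groups alone, and 4 to 8 with 1 left out). The change of the WT-to-KO difference with age gave 0 (1 by DESeq2), lung 0 (2 by DESeq2), and the GFP experiment 1 (2 by edgeR or with no filter, and 1 to 2 with 1 left out, 2 without control replicate 1). Shares of all genes were not set beside these counts, so they do not show whether members changed more than other genes. The causes of these differences were not tested. Left-out libraries of the 10-week groups were chosen after seeing the data.

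The numbers of the replicates were not taken to pair the samples, since in no set did every pair of same-numbered libraries correlate over 0.1. This rule is strict, and same-numbered pairs were not compared with differently numbered ones, so pairing is not excluded. Over such pairs the median correlation of deviations was 0.08 at 10 weeks (-0.30 to 0.37), 0.05 at 40 weeks (-0.25 to 0.57), 0.05 in the GFP experiment, 0.11 in lung, -0.04 in heart, -0.08 in liver, and 0.53 in white fat (3 of 4 pairs over 0.1). With the replicate block the age comparison gave 0 in KO and 2 in KO+AAV, and the GFP experiment 2. Few reads lie behind low members, such as *Rab27b* at 0 to 7.82 normalized counts in WT at 40 weeks.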
